A study of Mus musculus with 20 samples.

Results

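Toll-like receptors are the innate immune receptors that read microbial molecules and the debris of injured tissue, and 8 of them are described here together with Cd14, a co-receptor that hands lipopolysaccharide to Tlr4, and Myd88, the adaptor that most of them signal through. These 10 genes were chosen by name, without reference to a threshold on any measured value, out of 46078 genes listed in the count tables. Their symbols were matched to the Ensembl identifiers of the tables through the GENCODE M21 annotation of the mouse genome build GRCm38. All 10 had counts in each of the 20 libraries.

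The bulk RNA libraries came from brain tissue of wild-type C57BL/6J mice aged 18 months, 7 weeks after stroke. The stroke was a permanent occlusion of the distal middle cerebral artery followed by hypoxia, abbreviated DH, and every animal in all 4 groups carried it, so no group was free of stroke. Vehicle groups received sterile PBS, and treated groups received 4 g/kg of 2-hydroxypropyl-β-cyclodextrin (HPBCD), a ring-shaped sugar that takes up lipids, under the skin 3 times a week for 6 weeks, starting 1 week after surgery. The infarct was cut away first, and the tissue next to it (peri-infarct) and the matching region of the other hemisphere (contralateral) were collected. The 4 groups were vehicle peri-infarct, vehicle contralateral, HPBCD peri-infarct and HPBCD contralateral, with 5 libraries each. The methods of the study give all mice as male. The contralateral tissue came from the same injured animals, and as a control it shares their treatment and any response of the whole brain.

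Toll-like receptors work as pairs or single chains on the cell surface or inside endosomes. Tlr1 and Tlr6 each pair with Tlr2 to bind bacterial lipopeptides, Tlr4 binds lipopolysaccharide with Cd14 and Ly96, and Tlr3, Tlr7, Tlr9 and Tlr13 sit in endosomes and bind nucleic acids. Apart from Tlr3, which signals through the adaptor Ticam1, they recruit Myd88, then Irak kinases and Traf6, which release NF-kB and interferon regulatory factors to the nucleus. In the brain, microglia and macrophages are the main cells that express most of these receptors, and astrocytes express some of them, Tlr3 included.

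The sequences upstream of a RefSeq start site are shown for 5 of the genes. They were chosen because they differ in the short words that myeloid and inflammatory factors are known to bind. They were read from RefSeq windows of build GRCm38.p6, which held 7 of the 10 genes in 9 windows, and are written 5′ to 3′ on the strand of the gene. Each starts 250 bases before the RefSeq start site and stops where GENCODE M21 places an exon of the same gene. Capitals mark 3 words, each searched on both strands. They are GAGGAA, the core recognised by the myeloid factor PU.1, the interferon-stimulated repeat (GAAA, any 2 bases, GAAA), and the NF-kB consensus.
Tlr2, chr3:83841768-83841858, minus strand, 91 bases: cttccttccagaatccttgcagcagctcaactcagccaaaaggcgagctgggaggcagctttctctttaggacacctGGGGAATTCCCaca
Tlr1, chr5:64933564-64933808, minus strand, 245 bases: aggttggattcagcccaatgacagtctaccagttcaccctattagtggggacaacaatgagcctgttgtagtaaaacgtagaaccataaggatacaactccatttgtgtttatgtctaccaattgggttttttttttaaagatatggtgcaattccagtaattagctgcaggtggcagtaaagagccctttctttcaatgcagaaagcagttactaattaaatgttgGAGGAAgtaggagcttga
Tlr9, chr9:106222348-106222597, plus strand, 250 bases: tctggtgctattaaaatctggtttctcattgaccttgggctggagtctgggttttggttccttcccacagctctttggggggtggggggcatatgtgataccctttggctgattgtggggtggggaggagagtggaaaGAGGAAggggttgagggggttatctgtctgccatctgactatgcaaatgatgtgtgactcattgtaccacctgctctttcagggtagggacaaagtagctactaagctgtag
Tlr13, chrX:106143025-106143203, plus strand, 179 bases: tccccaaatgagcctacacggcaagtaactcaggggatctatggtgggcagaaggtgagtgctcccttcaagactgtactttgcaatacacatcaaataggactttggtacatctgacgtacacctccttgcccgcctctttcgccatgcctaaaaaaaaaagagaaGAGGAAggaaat
Myd88, chr9:119340042-119340268, minus strand, 227 bases: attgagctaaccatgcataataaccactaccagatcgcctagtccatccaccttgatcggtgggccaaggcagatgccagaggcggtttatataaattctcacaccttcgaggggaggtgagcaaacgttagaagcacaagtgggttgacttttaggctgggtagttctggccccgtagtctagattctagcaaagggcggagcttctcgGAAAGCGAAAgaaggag

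The NF-kB consensus was found upstream of Tlr2, where 2 matches overlap in the capitals, and in the RefSeq window of Tlr3. That Tlr3 window lies inside the gene as GENCODE M21 places it. The NF-kB consensus was present in 7.25% of all 32851 RefSeq windows of this length. GAGGAA was present upstream of Tlr1, Tlr9 and Tlr13 and in 23.3% of all windows, and the longer GAGGAAGT, which contains it, upstream of Tlr1 and in 2.44% of all windows. The interferon-stimulated repeat stood in the Myd88 window and in 1 of the Tlr6 windows, where 2 matches overlap, and in 2.98% of all windows. Both of these windows also lie inside their genes as GENCODE M21 places them. These matches describe the letters in these windows and do not show binding.

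The libraries held between 14445021 and 22171627 counts on genes, with a median of 19008532. Levels are given as CPM, the count of a gene relative to the size of its library, with sizes adjusted by TMM factors over the 20 libraries. On that scale the floor of 3 counts lay between 0.135 and 0.208 CPM. In the vehicle contralateral group, replicate 1 stood apart in its striatal neuron markers, whose summed level was 1220 CPM against 78.0 to 93.3 CPM in the other 4 libraries. In the HPBCD contralateral group, replicate 3 stood apart in its ependyma and choroid plexus markers, with a sum of 620 CPM against 5.37 to 11.7 CPM. Without vehicle contralateral replicate 1 the count of genes of the set called in the vehicle region comparison was 9, as with it, and without HPBCD contralateral replicate 3 the count in the HPBCD region comparison was 10, as with it.

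The first question was how the receptors differed between the peri-infarct tissue and the contralateral region in vehicle-injected mice. In the vehicle groups 9 of the 10 genes were higher in peri-infarct tissue, with Tlr2, Tlr1 and Tlr13 showing the greatest log2 fold changes of the set, and only Myd88 did not pass the test. Calls are adjusted p-values under 0.05 from the edgeR quasi-likelihood test, fitted and adjusted over all 15801 genes tested. Of all those genes, 10.5% were called higher and 9.70% were called lower. The median log2 fold change of the 10 genes was 1.66, against 0.01 over all genes tested. In the vehicle groups, 7 of the 10 genes had no overlap between the regions, where 6.23% of all genes tested lay higher without overlap. Tlr1 passed the filter on low counts through its peri-infarct libraries alone and its call is therefore less informative than those of the other genes.

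In the groups labelled HPBCD the same question gave 10 of 10 genes higher in peri-infarct tissue by edgeR, all without overlap between the regions. Tlr1 again passed the filter through peri-infarct libraries alone. The background was also greater there, since 30.3% of 16047 genes tested were called higher, 24.3% were called lower and 22.5% lay higher without overlap. The median log2 fold change of the set was 2.52, against 0.03 over all genes tested. Both region comparisons are therefore given gene by gene below, ordered by the role of the receptor.

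**Figure D1:**
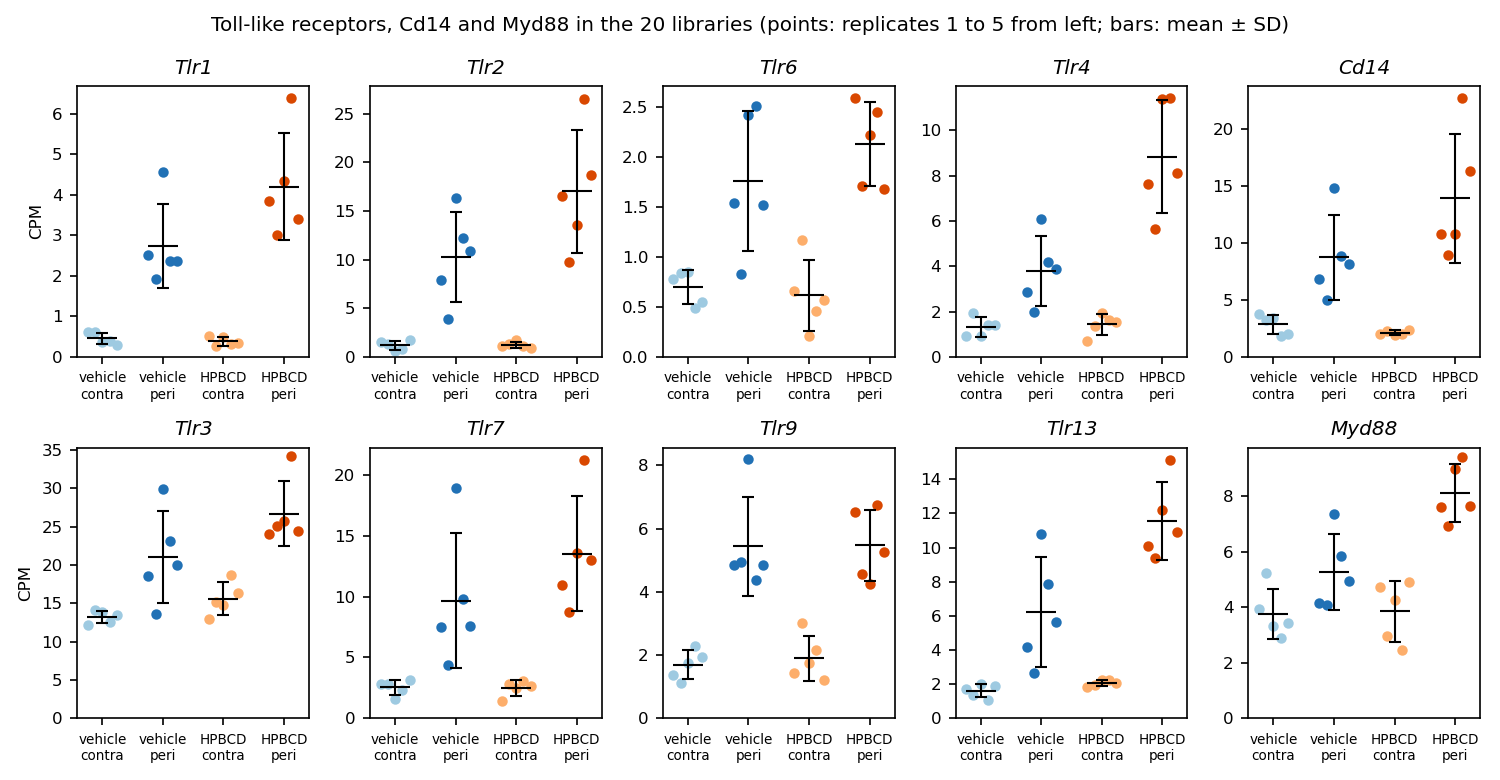
Each panel plots 1 gene, with the level in CPM on a linear axis from 0 and the 4 groups along the bottom. Points are the 5 libraries of a group in order of replicate number, and bars give mean ± SD. Peri-infarct points lie above contralateral points in both treatments for Tlr1, Tlr2, Tlr4, Tlr7, Tlr9, Tlr13 and Cd14, while Tlr3, Tlr6 and Myd88 overlap in the vehicle groups.

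Tlr2 (ENSMUSG00000027995, chr3:83836272-83841767), the shared chain of the lipopeptide receptors, had the greatest difference between regions of the 10 genes. Vehicle peri-infarct libraries, from replicate 1 to replicate 5, held 7.93, 3.92, 16.4, 12.2 and 10.9 CPM, and the vehicle contralateral libraries 1.55, 1.28, 0.603, 0.764 and 1.69 CPM. In the HPBCD groups the peri-infarct libraries held 16.5, 9.77, 13.5, 26.5 and 18.7 CPM and the contralateral libraries 1.07, 1.33, 1.74, 1.08 and 0.857 CPM. Every peri-infarct library thus lay above every contralateral library, and replicate 2 was the lowest peri-infarct library in both treatments. The means were 10.3 ± 4.67 CPM against 1.18 ± 0.479 CPM in vehicle (SD, n = 5), and the log2 fold change was 3.12 (SE 0.39, edgeR adjusted p = 0.00146). In HPBCD the means were 17.0 ± 6.30 CPM against 1.21 ± 0.340 CPM (SD, n = 5), and the log2 fold change was 3.86 (SE 0.28, edgeR adjusted p = 7.89e-07).

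Tlr1 (ENSMUSG00000044827, chr5:64924679-64933563), which pairs with Tlr2 on triacylated lipopeptides, was near the floor in contralateral tissue. Its vehicle contralateral libraries held 0.608, 0.612, 0.362, 0.382 and 0.299 CPM, from 6 to 11 counts each, and its HPBCD contralateral libraries 0.507, 0.255, 0.488, 0.308 and 0.343 CPM. In the peri-infarct region it reached 2.51, 1.91, 4.56, 2.37 and 2.37 CPM in vehicle and 3.84, 3.01, 4.34, 6.38 and 3.40 CPM in HPBCD. No contralateral library came near the lowest peri-infarct library, and replicate 3 of the vehicle group stood well above its other 4. The log2 fold change was 2.59 in vehicle (SE 0.32, edgeR adjusted p = 0.00146) and 3.49 in HPBCD (SE 0.29, edgeR adjusted p = 1.45e-06).

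Tlr6 (ENSMUSG00000051498, chr5:64952031-64960097), which pairs with Tlr2 on diacylated lipopeptides and lies beside Tlr1, was the receptor of the lowest level per length in peri-infarct tissue. In vehicle it measured 1.53, 0.826, 2.42, 2.51 and 1.52 CPM in peri-infarct tissue and 0.774, 0.835, 0.844, 0.491 and 0.548 CPM in contralateral tissue. In HPBCD it measured 2.59, 1.70, 2.22, 2.45 and 1.68 CPM and 0.660, 1.17, 0.209, 0.461 and 0.571 CPM. The vehicle groups overlapped through peri-infarct replicate 2 alone, and the HPBCD groups did not overlap. Its fold change on the log2 scale was 1.34 in vehicle (SE 0.33, edgeR adjusted p = 0.0151) and 1.78 in HPBCD (SE 0.33, edgeR adjusted p = 0.000588). Of the 75-base stretches of Tlr6 transcripts, 9.25% also occur in Tlr1 transcripts, and 10.6% of those of Tlr1 occur in transcripts of other genes, Tlr6 among them. Reads from these stretches could be split between the genes or left out by the counting, so the counts of both are uncertain to that extent.

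Tlr4 (ENSMUSG00000039005, chr4:66827584-66930284), the lipopolysaccharide receptor, held 2.86, 1.96, 6.07, 4.18 and 3.89 CPM in vehicle peri-infarct tissue and 0.940, 1.95, 0.904, 1.42 and 1.40 CPM in vehicle contralateral tissue. In HPBCD it held 7.64, 5.66, 11.4, 11.4 and 8.10 CPM in peri-infarct tissue and 0.71, 1.38, 1.95, 1.62 and 1.54 CPM in contralateral tissue. The regions did not overlap in either treatment, although in vehicle the lowest peri-infarct and the highest contralateral library, both replicate 2, nearly touched. The log2 fold change was 1.53 in vehicle (SE 0.32, edgeR adjusted p = 0.00823) and 2.68 in HPBCD (SE 0.27, edgeR adjusted p = 4.51e-06).

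Cd14 (ENSMUSG00000051439), a single-exon gene whose product is anchored to the membrane by a lipid and also circulates, rose with its partner. Vehicle peri-infarct libraries held 6.86, 4.96, 14.8, 8.87 and 8.16 CPM, and vehicle contralateral libraries 3.76, 3.23, 3.38, 1.80 and 2.04 CPM. HPBCD peri-infarct libraries held 10.8, 8.97, 10.8, 22.8 and 16.3 CPM, and HPBCD contralateral libraries 1.98, 2.29, 1.88, 2.0 and 2.40 CPM. The regions were separate in both treatments, and the HPBCD contralateral libraries lay closer together than those of vehicle, with coefficients of variation of 10.5% and 30.5%. The log2 fold change was 1.63 in vehicle (SE 0.30, edgeR adjusted p = 0.00511) and 2.76 in HPBCD (SE 0.25, edgeR adjusted p = 2.68e-06).

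Among the endosomal receptors, Tlr3 (ENSMUSG00000031639, chr8:45395665-45411080), the sensor of double-stranded RNA, differed from the others in its high level in contralateral tissue. It measured 18.5, 13.6, 29.9, 23.2 and 20.02 CPM in vehicle peri-infarct tissue and 12.2, 14.1, 13.8, 12.6 and 13.4 CPM in vehicle contralateral tissue. In HPBCD it measured 24.0, 25.1, 25.7, 34.2 and 24.4 CPM in peri-infarct tissue and 12.9, 15.2, 14.8, 18.7 and 16.4 CPM in contralateral tissue. Vehicle peri-infarct replicate 2 fell among the contralateral libraries, and the HPBCD groups did not overlap. Its log2 fold changes were the least of the 8 receptors, 0.68 in vehicle (SE 0.17, edgeR adjusted p = 0.0188) and 0.83 in HPBCD (SE 0.13, edgeR adjusted p = 0.000151). Exons of Tlr3 overlap those of the antisense gene Gm45542 by 381 bases, and the strand setting of the counting is not given in the sources used here.

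Tlr7 (ENSMUSG00000044583, chrX:167304929-167330558), a sensor of single-stranded RNA, had the widest spread of the set in vehicle peri-infarct tissue, with a coefficient of variation of 57.4%. Its libraries there held 7.52, 4.39, 19.0, 9.84 and 7.59 CPM, against 2.82, 2.84, 1.57, 2.35 and 3.14 CPM in vehicle contralateral tissue. HPBCD libraries held 11, 8.77, 13.6, 21.3 and 13 CPM against 1.42, 2.80, 2.51, 3.08 and 2.63 CPM. The regions were separate in both treatments. The log2 fold change was 1.93 in vehicle (SE 0.36, edgeR adjusted p = 0.00489) and 2.5 in HPBCD (SE 0.26, edgeR adjusted p = 5.89e-06).

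Tlr9 (ENSMUSG00000045322, chr9:106222598-106226883), the sensor of unmethylated CpG DNA, held 4.86, 4.96, 8.21, 4.36 and 4.84 CPM in vehicle peri-infarct tissue and 1.38, 1.11, 1.75, 2.29 and 1.94 CPM in vehicle contralateral tissue. In HPBCD it held 6.52, 4.56, 4.25, 6.75 and 5.26 CPM in peri-infarct tissue and 1.42, 3.01, 1.74, 2.15 and 1.20 CPM in contralateral tissue. The regions were separate in both treatments, and 4 of the 5 vehicle peri-infarct libraries lay between 4.36 and 4.96 CPM. Its log2 change between regions was 1.69 in vehicle (SE 0.24, edgeR adjusted p = 0.00223) and 1.57 in HPBCD (SE 0.25, edgeR adjusted p = 0.000169).

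Tlr13 (ENSMUSG00000033777, chrX:106143204-106160493), a mouse sensor of bacterial ribosomal RNA, held 4.2, 2.63, 10.8, 7.84 and 5.65 CPM in vehicle peri-infarct tissue and 1.71, 1.39, 1.99, 1.09 and 1.89 CPM in vehicle contralateral tissue. The HPBCD libraries held 10.1, 9.37, 12.2, 15.2 and 10.9 CPM against 1.83, 1.94, 2.23, 2.23 and 2.06 CPM. The contralateral libraries of HPBCD lay within a narrow range, and no library of either treatment crossed between regions. The log2 fold change was 1.96 in vehicle (SE 0.35, edgeR adjusted p = 0.00457) and 2.54 in HPBCD (SE 0.16, edgeR adjusted p = 4.39e-07).

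Myd88 (ENSMUSG00000032508, chr9:119335934-119341411), the shared adaptor, held 4.14, 4.08, 7.37, 5.85 and 4.93 CPM in vehicle peri-infarct tissue and 3.93, 5.23, 3.31, 2.89 and 3.44 CPM in vehicle contralateral tissue. These groups overlapped, and the log2 fold change of 0.50 (SE 0.21) did not pass the test (edgeR adjusted p = 0.122). In HPBCD it held 7.60, 6.92, 8.97, 9.41 and 7.64 CPM in peri-infarct tissue and 4.72, 2.96, 4.26, 2.46 and 4.91 CPM in contralateral tissue. There the groups were separate and the log2 fold change was 1.11 (SE 0.19, edgeR adjusted p = 0.000314). Exons of Myd88 overlap those of Acaa1a on the opposite strand by 290 bases.

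When the 5 animals of a treatment were followed by animal, each with both regions, the peri-infarct library was the higher one in 5 of 5 vehicle pairs for 7 genes. It was higher in 4 of 5 pairs for Tlr3, Tlr6 and Myd88. In HPBCD it was higher in 5 of 5 pairs for all 10 genes. The share of all genes higher in 5 of 5 pairs was not computed. It is at least the share that lay higher without overlap, 6.23% in vehicle and 22.5% in HPBCD. The peri-infarct libraries also differed among themselves in a shared way, since vehicle replicate 3 was the highest of its group for 9 of the 10 genes and vehicle replicate 2 the lowest for 9. In HPBCD, replicate 4 was the highest for 9 genes and replicate 2 the lowest for 7. The summed level of the 10 genes ran from 43.2 to 119 CPM in vehicle peri-infarct tissue and from 83.8 to 156 CPM in HPBCD peri-infarct tissue, against 26.1 to 32.6 CPM and 27.2 to 34.1 CPM in the contralateral groups.

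**Figure D2:**
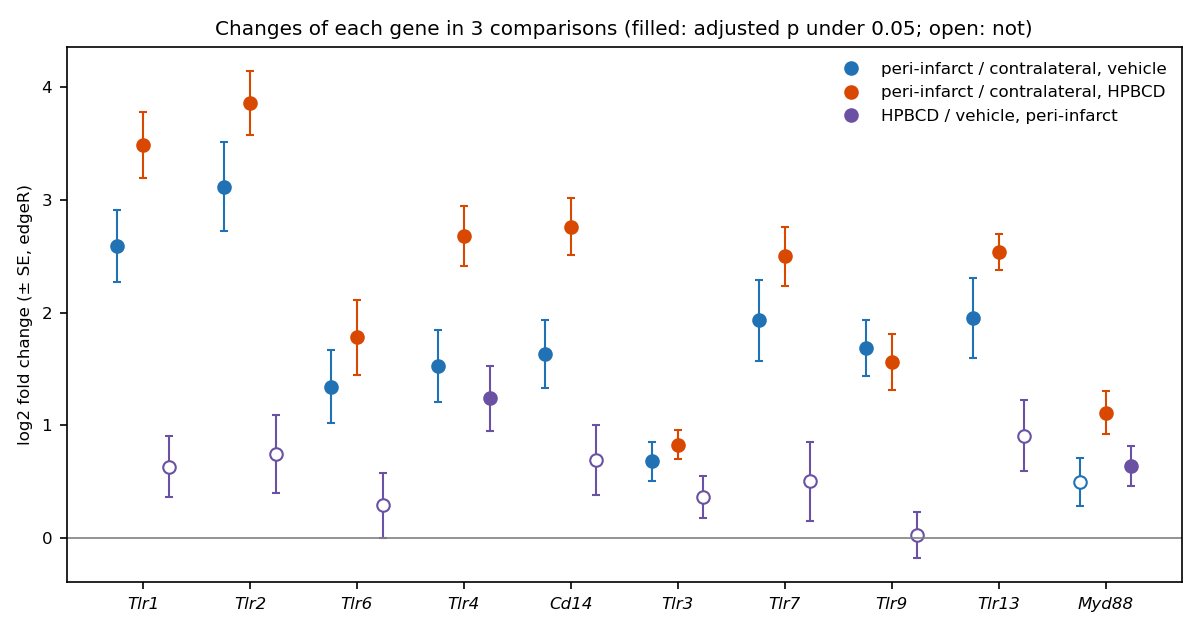
For each gene the points give the log2 fold change from edgeR with its SE, for the region comparison within vehicle and within HPBCD and for HPBCD against vehicle in peri-infarct tissue. Filled points have an adjusted p under 0.05. Region changes run from 0.50 for Myd88 in vehicle to 3.86 for Tlr2 in HPBCD, and of the treatment changes only Tlr4 and Myd88 are filled.

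The second question was whether the receptors differed between the 2 treatments in peri-infarct tissue. Tlr4 and Myd88 were higher in the libraries labelled HPBCD, and the other 8 genes did not pass the test. The direction of every treatment difference given here rests on the sample labels alone. No measured gene marks the treatment, so the labels could not be checked from the counts, and an exchange of the 2 treatment labels would turn the sign of each treatment difference. By edgeR 2 of the 10 genes were called higher and 0 lower, where 12.4% of 16224 genes tested were called higher and 9.0% were called lower. The vehicle and HPBCD groups overlapped for every one of the 10 genes, where 6.90% of all genes tested lay higher in HPBCD without overlap. All 10 estimates were above 0 and their median was 0.64 on the log2 scale, against 0.01 over all genes, and 5 of the 10 had an unadjusted p under 0.05, as did 39.2% of all genes tested. These treatment comparisons use the same libraries as the region comparisons above.

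Tlr4 averaged 8.85 ± 2.51 CPM in HPBCD and 3.79 ± 1.55 CPM in vehicle peri-infarct tissue (SD, n = 5), a log2 difference of 1.24 (SE 0.29, edgeR adjusted p = 0.0192). A single vehicle library, replicate 3 at 6.07 CPM, reached above the lowest HPBCD library, replicate 2 at 5.66 CPM. The call on Tlr4 was lost when HPBCD peri-infarct replicate 3 was left out (edgeR adjusted p = 0.0549). Myd88 averaged 8.11 ± 1.04 CPM in HPBCD and 5.27 ± 1.37 CPM in vehicle (SD, n = 5), a log2 difference of 0.64 (SE 0.18, edgeR adjusted p = 0.0307). For Myd88 too a single vehicle library, replicate 3 at 7.37 CPM, lay above the lowest of the HPBCD libraries. Its call held in 4 of the 10 fits that left out 1 library.

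The closest of the others to the threshold was Tlr13, with 11.5 ± 2.28 CPM in HPBCD and 6.22 ± 3.20 CPM in vehicle (SD, n = 5) and a log2 difference of 0.91 (SE 0.31, edgeR adjusted p = 0.0574). Tlr2 differed by 0.75 (SE 0.34, edgeR adjusted p = 0.131), Cd14 by 0.69 (SE 0.31, edgeR adjusted p = 0.125) and Tlr1 by 0.63 (SE 0.27, edgeR adjusted p = 0.110). Tlr7 differed by 0.51 (SE 0.35, edgeR adjusted p = 0.304), Tlr3 by 0.36 (SE 0.19, edgeR adjusted p = 0.172) and Tlr6 by 0.29 (SE 0.29, edgeR adjusted p = 0.476). Tlr9 had nearly the same mean in both, 5.47 ± 1.13 CPM in HPBCD and 5.45 ± 1.56 CPM in vehicle (SD, n = 5), a log2 difference of 0.03 (SE 0.20, edgeR adjusted p = 0.931). The number of genes of the set called in this comparison ranged from 0 without HPBCD peri-infarct replicate 3 to 7 without vehicle peri-infarct replicate 3, where 5.03% and 28.5% of all genes were called. It was 1 without vehicle peri-infarct replicate 1, 2 or 5, and also 1 when HPBCD peri-infarct replicate 4 or 5 was left out, and 7.93% to 13.2% of all genes were called in those fits.

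In contralateral tissue the treatments were compared for 9 of the 10 genes, since Tlr1 did not pass the filter on low counts there. None of the 9 was called by edgeR, none had an unadjusted p under 0.05, and limma called 0 as well. DESeq2 gave an adjusted p for 4 of the genes and called 0 of them. Of all 15469 genes tested 0 were called, which is 0%, and 1224 had an unadjusted p under 0.05, while DESeq2 called 49 of 13087. The widest of the estimates were Cd14 at -0.43 (SE 0.23, edgeR adjusted p = 0.657) and Tlr13 at 0.33 (SE 0.21, edgeR adjusted p = 0.707). Tlr3 was at 0.23 (SE 0.10, edgeR adjusted p = 0.625), and the other 6 estimates lay between -0.14 and 0.16.

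Whether the difference between regions itself differed between treatments was tested with the product of region and treatment over all 20 libraries. None of the 10 genes was called by edgeR, where 9.41% of 16758 genes tested were called in either direction. Unadjusted p-values under 0.05 were found for 28.9% of all genes and for 2 of the 10, Tlr4 with a difference of log2 fold changes of 1.15 (SE 0.43, edgeR adjusted p = 0.0923) and Cd14 with 1.12 (SE 0.41, edgeR adjusted p = 0.0851). DESeq2 called 0 of the 10, and limma with sample weights called 2 of the 10 and 24.5% of all genes. The estimate for Tlr9 was -0.13 (SE 0.35, edgeR adjusted p = 0.842), the only 1 of the 10 below 0. A count of 2 was also reached without vehicle peri-infarct replicate 3, where 16.8% of all genes were called, and when HPBCD peri-infarct replicate 2 was left out, where 18.4% were called.

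To place the receptors beside each other, CPM was divided by the length of the exons of each gene in kilobases. Per kilobase, Tlr3 led in contralateral tissue, with 2.54 ± 0.151 in vehicle and 2.99 ± 0.411 in HPBCD (SD, n = 5). Cd14 led in peri-infarct tissue, with 5.04 ± 2.15 in vehicle and 8.04 ± 3.26 in HPBCD. Tlr2 ranked 6 of 10 in vehicle contralateral tissue at 0.391 ± 0.159 per kilobase and 3 of 10 in vehicle peri-infarct tissue at 3.41 ± 1.55.

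The lowest level per kilobase was that of Tlr1 in contralateral tissue, at 0.135 ± 0.0440 in vehicle and 0.114 ± 0.0335 in HPBCD, and that of Tlr6 in peri-infarct tissue, at 0.472 ± 0.188 and 0.571 ± 0.113. Neighbours in this order mostly could not be separated by their spread. All 9 neighbouring pairs overlapped in vehicle peri-infarct tissue, and 7 of 9 overlapped in each of the other groups. The separate neighbours in vehicle contralateral tissue were Tlr3 above Cd14, and Myd88 above Tlr7. In HPBCD contralateral tissue they were Tlr3 above Myd88, and Cd14 above Tlr7. In HPBCD peri-infarct tissue they were Tlr13 above Tlr4, and Tlr1 above Tlr6.

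**Figure D3:**
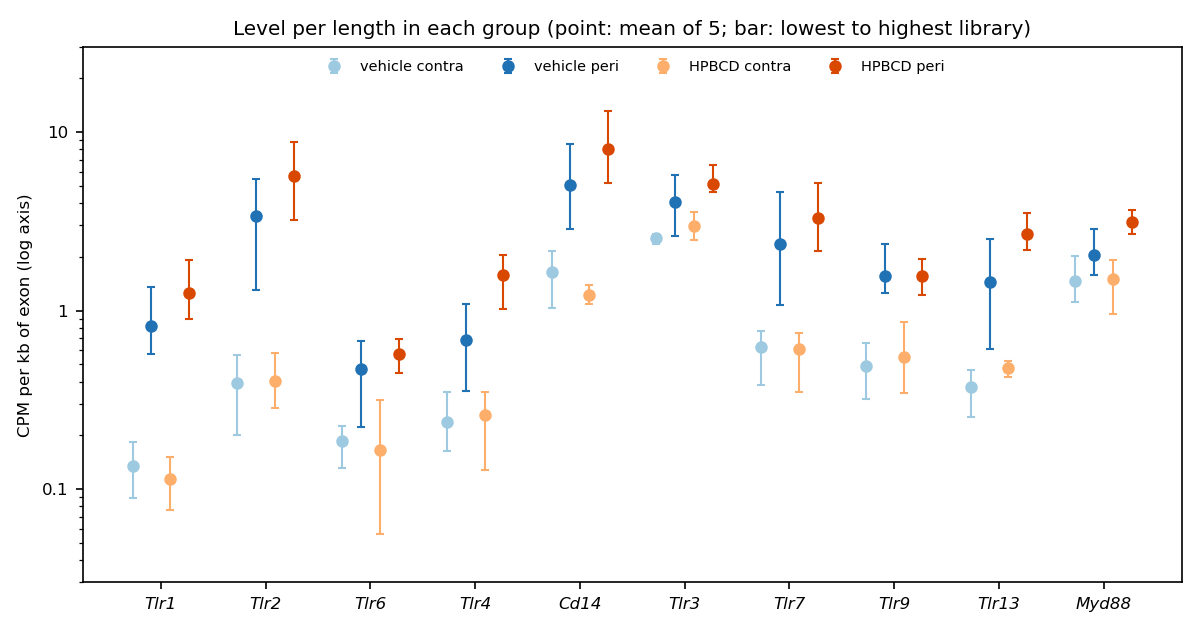
The vertical axis is the level in CPM per kilobase of exon on a log scale, with the 10 genes along the bottom and the 4 groups in colour. Points are means of 5 libraries and bars run from the lowest to the highest library. Tlr3 is the highest gene in both contralateral groups at 2.54 and 2.99, and Cd14 in both peri-infarct groups at 5.04 and 8.04.

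The levels of the 10 genes moved with markers of myeloid cells. All 8 pan-myeloid markers, such as Csf1r and Aif1, were called higher in peri-infarct tissue in both treatments, with median log2 fold changes of 1.66 in vehicle and 2.70 in HPBCD, close to the medians of the receptors. All 8 homeostatic microglia markers, such as P2ry12 and Tmem119, were also called higher in both, with medians of 0.99 and 1.37. The summed pan-myeloid level ran from 249 to 928 CPM in vehicle peri-infarct tissue and from 134 to 167 CPM in vehicle contralateral tissue, and from 635 to 1410 CPM and 127 to 175 CPM in HPBCD. Vehicle peri-infarct replicate 2 and replicate 3, the extremes for 9 of the 10 genes each, were also the extremes of this sum. In the bulk tissue, more cells of a type and more RNA per cell cannot be told apart, and the part of cell numbers in these differences was not tested.

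Set against the individual pan-myeloid markers, 8 of the 10 genes had a log2 fold change in vehicle within the range of those markers, 1.21 to 3.79, and Tlr3 and Myd88 lay below it. In HPBCD 7 lay within the range and 3, Tlr3, Tlr9 and Myd88, lay below it. Set against the homeostatic microglia markers, 6 of the 10 lay above their range in each treatment and 4 lay within it. In the treatment comparison in peri-infarct tissue, 0 of 8 pan-myeloid and 0 of 8 homeostatic microglia markers were called, with medians of 0.71 and 0.33. These counts were not stable, since leaving out vehicle peri-infarct replicate 3 gave 8 and 6, and leaving out HPBCD peri-infarct replicate 2 gave 3 and 1. Without vehicle peri-infarct replicate 4, 1 pan-myeloid marker was called.

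Pan-neuronal markers moved the other way, with 3 of 6 called lower in vehicle peri-infarct tissue, 6 of 6 called lower in HPBCD peri-infarct tissue and 5 of 6 called lower in the libraries labelled HPBCD against those labelled vehicle. That count of 5 became 0 without HPBCD peri-infarct replicate 3, 1 without vehicle peri-infarct replicate 1 or 2, 2 without HPBCD peri-infarct replicate 4 and 3 without vehicle peri-infarct replicate 4 or 5 or when HPBCD peri-infarct replicate 1 or 5 was left out. Other markers rose with the receptors in the HPBCD region comparison. All 6 striatal neuron markers were called higher there, with a median log2 fold change of 3.45, as were all 5 oligodendrocyte markers (median 1.14), 4 of 6 ependyma and choroid plexus markers (median 3.14, with Ccdc153, Tmem212 and Folr1 passing the filter through peri-infarct libraries alone) and 3 of 5 astrocyte markers (median 0.65). In the vehicle region comparison 3 of 5 astrocyte markers, 1 of 4 ependyma and choroid plexus markers tested, 0 of 6 striatal neuron and 0 of 5 oligodendrocyte markers were called higher, and without vehicle contralateral replicate 1 the striatal count was 6. Between treatments in peri-infarct tissue 3 of 6 ependyma and choroid plexus markers were called higher in HPBCD, where 12.4% of all genes were. Tmem212 and Folr1 were not tested in the fit of the vehicle groups and entered this comparison only with the HPBCD libraries. In the same comparison 1 of 5 astrocyte, 1 of 5 endothelial and 0 of 5 oligodendrocyte markers were called higher, and 0 lower. The oligodendrocyte median was 0.60, and their count ran from 0 to 5 when single libraries were left out. The part of these shifts in the levels of the receptors was not tested.

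Markers of other blood cells were scarce. The 7 neutrophil markers together reached 0.205 to 5.38 CPM in vehicle peri-infarct tissue and 1.71 to 30.2 CPM in HPBCD peri-infarct tissue, and Ly6g was at 0 in the latter. The summed level of 5 B cell markers was 0.716 to 2.42 CPM and 1.63 to 4.26 CPM in the same groups, and that of 5 T cell markers 1.76 to 8.72 CPM and 4.19 to 7.18 CPM. Border and perivascular macrophage markers, 6 in all, summed to 5.83 to 15.2 CPM in vehicle and 19.2 to 41.8 CPM in HPBCD peri-infarct tissue. There 4 of the 6 were called higher than in vehicle, and 1 of the 6 without HPBCD peri-infarct replicate 3, where 12.4% of all genes were called higher in the main fit. Pf4 was not tested in the fit of the vehicle groups and entered this comparison only with the HPBCD libraries. In the HPBCD region comparison the markers called higher were 2 of 2 neutrophil, 2 of 2 B cell, 3 of 3 T cell and 5 of 6 border macrophage markers tested, where 30.3% of all genes were. The neutrophil and B cell markers, Cd3e, Cd2, Lyve1, Ms4a7 and Pf4 passed the filter there through peri-infarct libraries alone. What these cells added to the receptor levels was not tested.

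**Figure D4:**
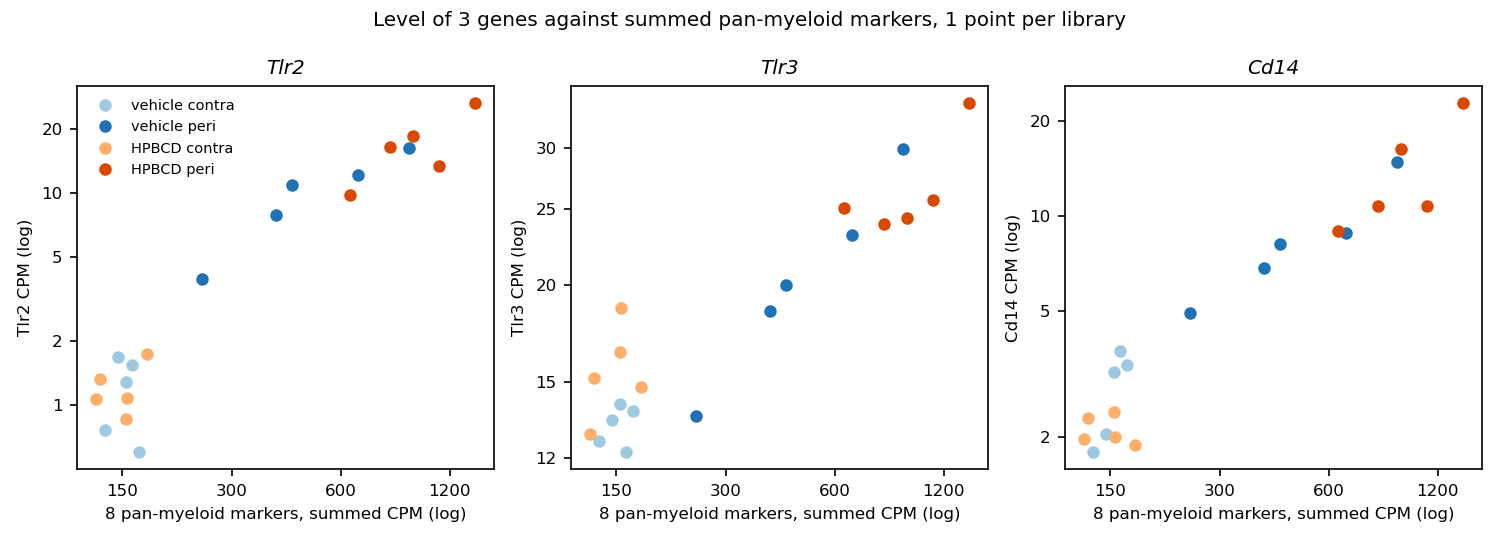
Each panel plots the level of 1 gene in CPM against the summed level of 8 pan-myeloid markers in CPM, both on log axes, with 1 point for each of the 20 libraries. Contralateral libraries gather at sums of 127 to 175 CPM, and peri-infarct libraries spread from 249 to 1410 CPM with higher Tlr2 and Cd14. Tlr3 spans a narrower range, from 12.2 to 34.2 CPM.

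The receptors also followed each other from library to library. Pearson correlations of log2 CPM were computed for the 45 pairs of genes, as a description over 20 libraries that share depth and tissue. Their median was 0.878 over all libraries and 0.494 after each group mean was removed. With group means removed, 21 of the 45 pairs were over 0.5 and 2 were below 0, Tlr9 with Myd88 at -0.375 and Tlr9 with Tlr1 at -0.024. Tlr9 was thus the receptor that followed the others least within groups.

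Among 14750 other genes at a mean of at least 1 CPM, those most like each gene were found by the same correlation over the 20 libraries. Tlr13 was closest to Cd84, a receptor of leukocytes, at 0.988, and then to Plek and Rassf4. Cd14 was closest to Cyth4 at 0.986, with Neurl3 and Ncf1, a subunit of the phagocyte oxidase, next. Tlr4 was closest to Cflar at 0.983, an inhibitor of caspase activation, and Tlr1 to Ctse at 0.983, a protease. These values include the difference between regions. With group means removed, the closest matches stood at 0.908 for Tlr13, 0.892 for Cd14, 0.886 for Tlr4 and 0.776 for Tlr1.

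Tlr2 was closest to Serpina3n at 0.982, a protease inhibitor known for its rise in reactive astrocytes, and next to Naip2 and Nckap1l. Tlr7 was closest to Naip2 at 0.979, a sensor protein of the inflammasome, and Mpeg1 was also among its 3 closest. Tlr3 was closest to Cmtm6 at 0.965 and Myd88 to P3h3 at 0.956. Tlr6, closest to the myeloid kinase Fgr at 0.942, and Tlr9, closest to Dock2 at 0.942, had the weakest best matches of the set. With group means removed, the closest matches stood at 0.782 for Tlr2, 0.89 for Tlr7 and 0.943 for Tlr3. They stood at 0.878 for Myd88, 0.836 for Tlr6 and 0.734 for Tlr9.

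The rest of the signal chain was read from fixed lists around the receptors. Of 4 other family members, Tlr5, Tlr8, Tlr11 and Tlr12, only Tlr12 was tested in vehicle and it was not called (log2 fold change 0.78, SE 0.29, edgeR adjusted p = 0.0816). In HPBCD both Tlr8 and Tlr12 rose in peri-infarct tissue, Tlr8 by 3.88 (SE 0.74, edgeR adjusted p = 0.000680), from a mean of 0.117 ± 0.160 CPM, below the floor, to 1.78 ± 1.07 CPM (SD, n = 5), and Tlr12 by 1.12 (SE 0.26, edgeR adjusted p = 0.00285). The size of the Tlr8 change is therefore uncertain. Tlr8 was also higher in HPBCD than in vehicle peri-infarct tissue, by 1.98 (SE 0.55, edgeR adjusted p = 0.0301). It did not pass the filter in the fit of the vehicle groups and entered this comparison only with the HPBCD libraries, so the call is less informative. In the HPBCD region comparison it passed the filter through peri-infarct libraries alone. The means of Tlr5 and Tlr11 were under 1 CPM in every group, and neither was tested.

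Co-receptors and accessory proteins behaved much like the receptors between regions. Of 10 genes, 7 were called higher in vehicle, 8 were called higher in HPBCD, and 0 were called lower in either. Of these, Cd36 passed the filter through peri-infarct libraries alone in both. Lbp, which delivers lipopolysaccharide to Cd14, rose by 2.43 in vehicle (SE 0.55, edgeR adjusted p = 0.0113) and by 4.69 in HPBCD (SE 0.73, edgeR adjusted p = 0.000152). Cd180, a Tlr4-like receptor, rose by 1.96 and 2.83, Ly86, its partner, by 1.73 and 2.55, and Ctss, a protease that trims endosomal receptors, by 1.90 and 2.65. Unc93b1, which carries the nucleic acid receptors to endosomes, rose by 1.57 and 2.33. Ly96, the partner of Tlr4, changed by 0.17 in vehicle (SE 0.39, edgeR adjusted p = 0.788) and rose by 1.08 in HPBCD (SE 0.25, edgeR adjusted p = 0.00271). The chaperones Cnpy3 and Hsp90b1, which fold the receptors, were called in neither treatment.

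Between treatments in peri-infarct tissue 3 of the 10 were called higher. Lbp was higher in HPBCD by 2.60 (SE 0.42, edgeR adjusted p = 0.0128), a call kept under each of its 18 alternative fits. Cd36, a scavenger receptor that assists Tlr2 with Tlr6, was higher by 1.85 (SE 0.48, edgeR adjusted p = 0.0251) and Ly96 by 0.92 (SE 0.30, edgeR adjusted p = 0.0499).

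TIR adaptors other than Myd88 were split. In vehicle 1 of 4 was called higher, Ticam2, which links Tlr4 to Ticam1, by 1.92 (SE 0.32, edgeR adjusted p = 0.00322), and it passed the filter through peri-infarct libraries alone. In HPBCD, Ticam2 rose by 2.74, again passing only through peri-infarct libraries, Tirap, which brings Myd88 to surface receptors, by 1.40 and Ticam1, the adaptor of Tlr3, by 1.00. Sarm1, which is known in neurons for driving axon loss, fell by 0.45 (SE 0.17, edgeR adjusted p = 0.0402), a call lost in 6 of the 10 fits that left out 1 library. In HPBCD against vehicle peri-infarct tissue, Tirap (0.84, SE 0.21, edgeR adjusted p = 0.0233), Ticam1 (0.63, SE 0.21, edgeR adjusted p = 0.0484) and Ticam2 (1.14, SE 0.31, edgeR adjusted p = 0.0282) were higher.

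The kinases and ubiquitin ligases below Myd88 moved less. Of 14, 3 were called higher in vehicle, 9 were called higher in HPBCD and 1 was called lower there. Over all genes 10.5% and 30.3% were called higher, and 24.3% were called lower in HPBCD. The median log2 fold changes of the 14 were 0.10 and 0.31. Irak4, the first kinase bound by Myd88, rose by 1.40 in vehicle (SE 0.32, edgeR adjusted p = 0.0112) and by 2.5 in HPBCD, and Ikbke, a kinase of the interferon branch, rose by 2.2 and 2.90. Tab2 rose by 0.40 and 0.78, and Tab3 changed by -0.405 in HPBCD (SE 0.12, edgeR adjusted p = 0.0130). Map3k7, the kinase held by Tab2 and Tab3, and Tbk1 were called in neither treatment. In HPBCD against vehicle peri-infarct tissue 3 of the 14 were higher, Irak4 by 1.11 (SE 0.29, edgeR adjusted p = 0.0250), Tab2 by 0.40 (SE 0.11, edgeR adjusted p = 0.0330) and Irak1 by 0.36 (SE 0.10, edgeR adjusted p = 0.0326). Over all genes 12.4% were called higher there.

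Of 9 NF-kB and interferon regulatory factor genes, 6 were called higher in vehicle and 9 in HPBCD, and 0 were called lower. Irf8, a factor of myeloid cells, rose by 1.81 and 2.42, Irf5, which is activated through Myd88, by 1.36 and 2.22, and Nfkb2 by 1.00 and 2.0. In peri-infarct tissue 4 of the 9 were higher in HPBCD, Nfkb2 by 0.83 (SE 0.24, edgeR adjusted p = 0.0347), Nfkb1 by 0.64 (SE 0.18, edgeR adjusted p = 0.0306), Irf3 by 0.51 (SE 0.13, edgeR adjusted p = 0.0260) and Rela by 0.47 (SE 0.14, edgeR adjusted p = 0.0376). The region difference itself was greater in HPBCD for Rela, by 0.83 (SE 0.18, edgeR adjusted p = 0.0167), and for Nfkb1, by 0.75 (SE 0.21, edgeR adjusted p = 0.0317). The call on Rela was kept under each of 27 alternative fits and that on Nfkb1 under 20 of 27.

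Inhibitors of the pathway gave 3 of 8 called higher in vehicle, with Tnfaip3, which removes ubiquitin from Traf6, rising by 0.97 (SE 0.23, edgeR adjusted p = 0.0127). In HPBCD 5 of 8 were called higher, among them Irak3, a kinase-like protein that holds back Irak4, by 2.16, and Tnfaip3 by 1.31, and Tollip fell by 0.36. In HPBCD against vehicle, Irak3 (1.20, SE 0.31, edgeR adjusted p = 0.0243) and Nfkbia (0.54, SE 0.16, edgeR adjusted p = 0.0339) were higher. They were 2 of 8, where 12.4% of all genes were called higher. The region difference of Irak3 was greater in HPBCD by 1.53 (SE 0.46, edgeR adjusted p = 0.0431), a call kept under 14 of 27 alternative fits.

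Target cytokines and chemokines were mostly too low to be tested. Of 12 genes, 2 passed the filter in vehicle, Nfkbiz and Ptgs2, and neither was called. With DESeq2, with no filter on low counts or with all groups in 1 fit, 5 were called higher in vehicle, and 2 or 3 were called without vehicle peri-infarct replicate 2 or without any 1 of the vehicle contralateral libraries. In HPBCD 7 passed and 6 were called higher, of which Cxcl10, Ccl2, Ccl3, Ccl5 and Ccl4 passed through peri-infarct libraries alone, and 1 was called where at least 10 counts in every library were required. Ccl3 rose from 0.286 ± 0.153 CPM in HPBCD contralateral tissue to 4.82 ± 1.75 CPM in peri-infarct tissue (SD, n = 5), and Cxcl10 from 0.0534 ± 0.0542 CPM, below the floor, to 2.33 ± 1.70 CPM (SD, n = 5). Ifnb1 was at 0 in all libraries, and the means of Tnf, Il6 and Il12b were under 1 CPM in every group. Between treatments 8 of the 12 were tested in peri-infarct tissue and 0 were called by edgeR.

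Across these lists 16 genes were called higher in the peri-infarct libraries labelled HPBCD than in those labelled vehicle, and none lower, a direction that rests on the labels. They were 29.1% of the 55 genes of the lists that were tested, against 12.4% called higher over all genes. Tlr8, which is among the 16, entered the comparison only with the HPBCD libraries. Of these 16 calls, 15 were lost when vehicle peri-infarct replicate 1 or replicate 2 alone was left out, and 15 when HPBCD peri-infarct replicate 3 was left out, with Lbp the exception each time. The number lost was 13 without HPBCD peri-infarct replicate 4, 10 without HPBCD peri-infarct replicate 5, 8 without vehicle peri-infarct replicate 5 and 6 without vehicle peri-infarct replicate 4. Counts also rose, since without vehicle peri-infarct replicate 3 the calls were 8 of 10 co-receptors and accessory proteins, 6 of 14 kinases and ubiquitin ligases and 7 of 9 NF-kB and interferon regulatory factor genes. Between regions the pathway calls moved less. Of the list genes tested, 41.7% were called higher in vehicle and 77.8% in HPBCD, against 10.5% and 30.3% over all genes. Some of them passed the filter through peri-infarct libraries alone, as given above. Of 20 calls in vehicle, at most 3 were lost without any 1 library, Nfkb1, Nfkbia, Irf7 and Peli1 being the genes affected, and of 45 calls in HPBCD at most 4, Tab1, Chuk, Ikbkb and Sarm1 being those affected.

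**Figure D5:**
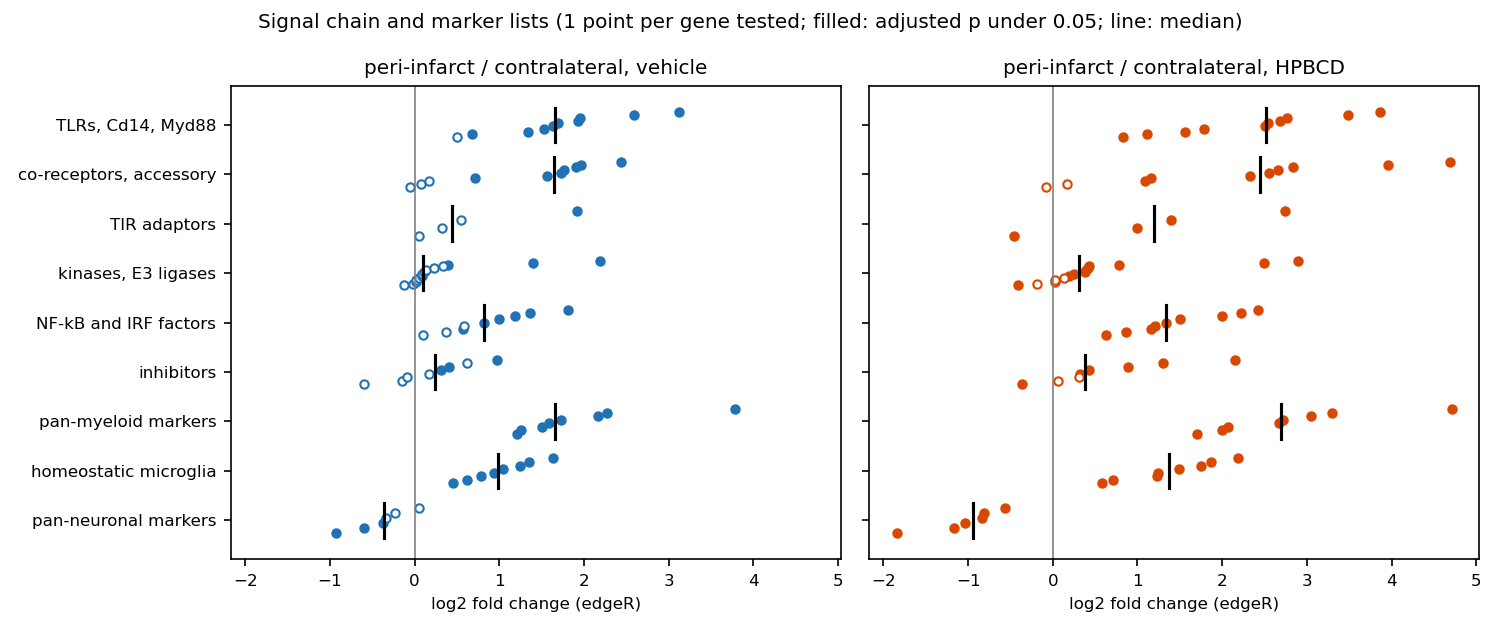
Each point is 1 gene tested, placed by its log2 fold change between peri-infarct and contralateral tissue from edgeR, in vehicle at left and HPBCD at right, with the lists in rows. Filled points have an adjusted p under 0.05 and black lines are medians. The receptors (medians 1.66 and 2.52) lie near the pan-myeloid markers (1.66 and 2.70), kinases and ubiquitin ligases lie near 0 (0.10 and 0.31), and pan-neuronal markers lie below 0.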

How the data were processed

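Bulk RNA sequencing libraries of peri-infarct and contralateral brain tissue were analysed in 4 groups of 5, taken from the titles and labels of the samples. The labels name bcl2fastq 2.19, Trimmomatic 0.32, STAR 2.5.2b and HTSeq and the build GRCm38. The authors deposited raw counts per gene and library, and the annotation release and strand setting of the counting are not given in the sources used here. Rows that name no gene were left out, with reads outside genes at 4.39 to 9.50%, ambiguous reads at 3.94 to 8.03% and reads without a unique position at 16.6 to 24.3%. These are shares of all rows summed, the gene rows and those that name no gene. HPBCD contralateral replicate 4, the smallest library, held the highest shares of the former pair, 9.50% and 8.03% against at most 5.86% and 4.16% in the other 19. Of the listed identifiers, 98.2% were in GENCODE M21, which gave symbols, positions and exon lengths. No pair of libraries held identical counts.

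The deposited counts were tested with edgeR 4.0.16 (R 4.3.3), using TMM factors, filterByExpr and the quasi-likelihood F test, fitted for each pair of groups over all genes with Benjamini-Hochberg adjustment and a threshold of 0.05. The interaction of region and treatment used all 20 libraries. The scripts were tested on simulated data. SE came from dividing the log2 fold change by the root of the F statistic. CPM were scaled by TMM over the 20 libraries, and correlations used log2 CPM with a prior count of 2. P-values measure the spread between animals of these groups, each animal giving both regions.

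The members and gene lists were chosen with earlier results of these data known. All 10 genes are given in every comparison. From each list the rule named up to 4 called genes of the greatest absolute change at a mean of at least 1 CPM and any gene at 0 in a whole group, and the other list genes named were chosen after their values were seen. For likeness the 3 genes of highest r were taken.

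Alternatives were DESeq2 1.42.0, limma 3.58.1 (voom with sample weights), RLE or upper-quartile scaling, genes unfiltered or with 10 or more counts in each library, a fit over all groups, a replicate block and leaving out each library. In the deposited file names both regions of a replicate number carry the same specimen number, which was taken to mark the animal and to pair the regions, although the deviations of paired libraries from their group means correlated only weakly (mean r 0.112, over 0.1 in 6 of 10 pairs). Between treatments a number is only a name.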

Additional observations from a re-analysis of the deposited data

Results flagged for a closer look

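In each of 40 combinations of gene and group, the 5 libraries were examined for a single one far from the rest, and chance flags about 1 in 20 such groups. The 3 found were Tlr1 in vehicle peri-infarct replicate 3, at 4.56 CPM against a highest other value of 2.51 CPM, Tlr9 in the same library, at 8.21 CPM against 4.96 CPM, and Tlr3 in HPBCD peri-infarct replicate 4, at 34.2 CPM against 25.7 CPM.

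A difference between the treatments in the region change was found by the interaction test of edgeR for 3 of the 55 genes of the signal chain tested, or 5.45%, against 9.41% of all genes. Rela differed by 0.832 on the log2 scale (adjusted p = 0.0167), Nfkb1 by 0.754 (adjusted p = 0.0317) and Irak3 by 1.527 (adjusted p = 0.0431), a call kept under 14 of 27 alternative fits.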

How the results depend on the processing

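For the region comparisons, the calls on the 9 genes in vehicle and the 10 genes in HPBCD kept their direction and side of the threshold under every alternative in which the gene was tested. Where at least 10 counts in every library were required, Tlr1 and Tlr6 were not tested and the counts were 7 and 8, with 21.1% and 54.7% of all genes called. In HPBCD against vehicle peri-infarct tissue, the count of 2 became 6 with limma and sample weights and ranged from 0 to 7 when single libraries were left out. Over all genes limma called 37.1%. The count was 0 without HPBCD peri-infarct replicate 3, 7 without vehicle peri-infarct replicate 3 (28.5% of all genes), and 1 without vehicle peri-infarct replicate 1, 2 or 5 or HPBCD peri-infarct replicate 4 or 5. The count of 0 in the interaction became 2 with limma and ranged from 0 to 2 when single libraries were left out (2 without vehicle peri-infarct replicate 3, and also 2 when HPBCD peri-infarct replicate 2 was left out). The cause was not tested.

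The fit with a replicate block, which pairs the regions of 1 animal, called 9 genes in vehicle, 10 in HPBCD and 0 in the interaction, and changed no call there. Over all genes it called 19.3%, 55.2% and 10.9%. Between treatments, where the number is a name only, the block gave 4 genes in peri-infarct tissue (27.0% of all genes) and 0 in contralateral tissue.

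Changes of sign were found for estimates that passed no test. For Tlr9 in the peri-infarct treatment comparison the reversed values ran from -0.059 to -0.002 and the highest was 0.223 when single libraries were left out. In the contralateral comparison, the values without single libraries ran from -0.142 to 0.188 for Tlr2, -0.038 to 0.277 for Tlr4, -0.52 to 0.058 for Tlr6, -0.183 to 0.1 for Tlr7, -0.083 to 0.29 for Tlr9 and -0.067 to 0.18 for Myd88, and limma gave 0.08 for Tlr7 and -0.085 for Myd88. The interaction of Tlr9 ran from -0.262 to 0.11.

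Depth limits Tlr1 and Tlr6 most, whose contralateral libraries held 4 to 11 and 3 to 23 counts.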
